A study of Papio hamadryas with 160 samples.

Results

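hsa-miR-138-5p and hsa-miR-139-5p were measured, beside 360 other miRNAs, in blood and brain of the same baboons. Both were chosen by their levels in these same libraries, high in the forebrain and low in the cerebellum and in blood. Their regional levels and differences are therefore given as a description, with no test. Tests are given for the other arms of their hairpins, for lists of miRNAs and, over animals, for the relation of each of the 2 between blood and brain. A miRNA is cut from a hairpin as a 5p and a 3p strand, usually with a clear excess of the strand that is loaded into an Argonaute protein and that represses target mRNAs through its seed. miR-138 is made from a pair of loci whose hairpins share the 5p strand and differ in the 3p strand (hsa-miR-138-1-3p and hsa-miR-138-2-3p). In rat hippocampal neurons miR-138 is found in dendrites, where it represses the depalmitoylating enzyme APT1 (Lypla1) and limits the size of dendritic spines. miR-139 lies in an intron of PDE2A, the gene of a cyclic nucleotide phosphodiesterase, and IGF1R and ROCK2 are among its known targets.

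The animals were adult captive baboons (Papio hamadryas), enrolled in various studies during life, with no treatment named in the labels. The 4 animals of Group A (A1 to A4) were females killed with pentobarbital, and their brain regions were dissected from fresh blocks and then flash frozen in chilled 2-methylbutane. The 6 animals of Group B (B1 to B6), 5 males and 1 female that were controls of a pregnancy study, were killed by exsanguination under anaesthesia, and their tissue was flash frozen in liquid nitrogen. Peripheral blood mononuclear cells (PBMC), that is lymphocytes and monocytes, came from every animal, which was sedated with ketamine for the draw. Group A gave the amygdala (AMG), the hypothalamic paraventricular nucleus (PVN, given only as hypothalamus in the labels), dorsomedial prefrontal cortex (dmPFC), dorsal anterior cingulate (dACC), lateral and medial orbitofrontal cortex (lOFC, mOFC) and posterior cingulate (PCC). Group B gave the hippocampus (HC, called dentate gyrus in the header of the table), entorhinal cortex (EC), dorsolateral prefrontal cortex (dlPFC), motor cortex (MC), posterior parietal cortex (PPC), occipital cortex (OC) and cerebellum (CB). The males of Group B were older, and the female of Group B younger, than the animals of Group A. No region was sampled in both groups, so group, sex, age, killing, freezing and region cannot be told apart. Differences and tests stay within a group, while the ratio of the 2 miRNAs and the likeness over regions also span both.

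Values of 76 libraries were used, 10 of PBMC and 66 of brain. Not analysed here were AMG of A4, CB of B2, MC of B4 and OC of B6. Levels are in RPM, reads per 1000000 mapped miRNA reads. The mapped reads of a library came to 1584760 to 4899936 reads in PBMC of Group A, 707977 to 1208336 in PBMC of Group B and 1425619 to 7036396 in brain. With a floor of 3 reads, a count of 0 in PBMC allowed a level of up to 0.612 to 1.89 RPM in Group A and 2.48 to 4.24 RPM in Group B, counting error only. The summed level of 7 leukocyte miRNAs lay between 65760 and 150928 RPM in PBMC and between 958 and 1805 RPM in brain, and that of 3 neuronal miRNAs (hsa-miR-124-3p, hsa-miR-128-3p, hsa-miR-9-5p) between 528 and 1025 RPM in PBMC and between 30581 and 70325 RPM in brain, so blood and brain libraries followed their labels. Some brain libraries of Group A stood apart from theirs. The mOFC of A3 was unlike the mOFC of the other animals and most like their AMG (r = −0.40 and 0.67 over all miRNAs, each library centred on the mean of its animal), and the AMG of A3 was closer to their lOFC than to their AMG (r = 0.38 and 0.05). The mOFC of A4 was also unlike those of the other animals, A3 among them (r = −0.18). The mOFC of A3 and of A4 were the 2 of 66 brain libraries with a negative r to their own region. A closer match to another region was not particular to A3. The AMG of A1 was closer to PVN than to AMG (r = 0.54 and 0.45), and the mOFC of A1, A2 and A4 were closer to lOFC or dACC. AMG and mOFC levels are given with and without the libraries of A3.

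hsa-miR-138-5p was a brain miRNA in these animals, at 785 to 4153 RPM in every brain library of Group A and at 864 to 2707 RPM in every library of Group B other than CB. It stood at 31.8, 104.8, 53.1 and 17.7 RPM in PBMC of A1 to A4, in that order (51.8 ± 38.2 RPM, SD, n = 4). In PBMC of Group B it ran from 21.5 RPM through a median of 52.1 RPM to 76.1 RPM (49.7 ± 25.5 RPM, SD, n = 6). Every PBMC library lay below every brain library of its group, as it did for 50.8% of all miRNAs in Group A and 40.6% in Group B. Averaged over brain regions, the level was 39.3-fold higher than PBMC in Group A, and 31.1-fold higher in Group B. Within animals the difference, PBMC minus brain on log2(RPM + 1), was −5.44 ± 0.64 in Group A (SD, n = 4) and −4.92 ± 0.82 in Group B (SD, n = 6), against medians over all miRNAs of −1.53 and −1.32.

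hsa-miR-139-5p had a narrower gap between blood and brain. It gave more reads than hsa-miR-138-5p in 8 of the 10 PBMC libraries. It stood at 277, 80.1, 208 and 126 RPM in PBMC of A1 to A4 (173 ± 87.5 RPM, SD, n = 4) and at 66.9 to 162 RPM, median 121 RPM, in Group B (112 ± 34.9 RPM, SD, n = 6). Brain levels of Group A were 296 to 1536 RPM, all above PBMC, as for 50.8% of the miRNAs. In Group B every PBMC library lay below the 34 libraries of the 6 regions other than CB (528 to 1436 RPM), as for 45% of the miRNAs, but not below CB. The mean over brain regions was 5.51-fold higher than PBMC in Group A and 6.60-fold in Group B, with within-animal differences of −2.49 ± 0.71 (SD, n = 4) and −2.28 ± 0.54 (SD, n = 6) on log2(RPM + 1). In whole tissue, fewer cells of a type and less RNA per cell cannot be told apart, here and in each comparison that follows.

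**Figure D1:**
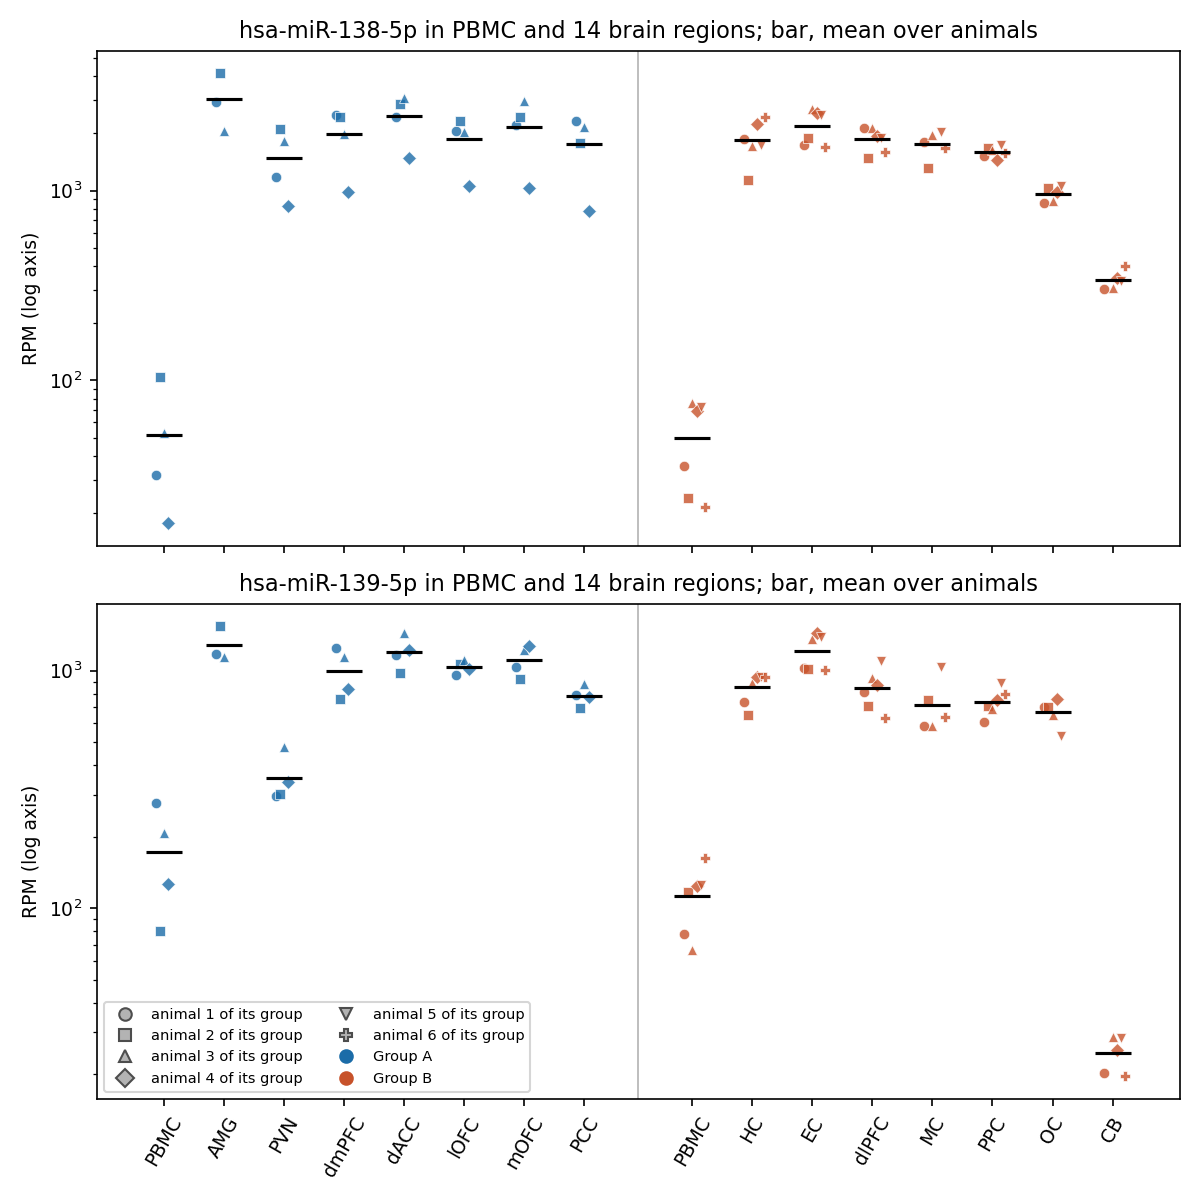
RPM of hsa-miR-138-5p (upper panel) and hsa-miR-139-5p (lower panel) in each library, on a log axis, by tissue, with Group A left of the line and Group B right of it. Symbols are animals and bars are means: hsa-miR-138-5p in CB lay between forebrain and PBMC, whereas hsa-miR-139-5p in CB lay below every PBMC library of its group.

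In Group B both levels were lowest in the cerebellum of all brain regions, and there the 2 miRNAs parted. hsa-miR-138-5p in CB of B1, B3, B4, B5 and B6 was 302, 306, 348, 335 and 399 RPM (338 ± 39.2 RPM, SD, n = 5), 5.30-fold below the mean of the other 6 regions of the same animals (1791 ± 78.5 RPM). hsa-miR-139-5p was 20.4, 28.8, 25.3, 28.5 and 19.6 RPM (24.5 ± 4.39 RPM, SD, n = 5), 35.3-fold below the other regions (866 ± 99.1 RPM). For both, the 5 CB libraries lay below all 34 forebrain libraries of the group, as they did for 22.4% of the miRNAs. On log2(RPM + 1) the CB was lower by −2.35 ± 0.13 for hsa-miR-138-5p and by −5.05 ± 0.18 for hsa-miR-139-5p (SD, n = 5), the 21st and the 6th lowest of all miRNAs, against a median of −0.49 over all miRNAs.

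Set against blood, the cerebellum again separated the 2. hsa-miR-138-5p was 6.16-fold higher in CB than in PBMC of the same 5 animals, higher in 5 of 5. hsa-miR-139-5p was 4.54-fold lower in CB than in PBMC, lower in 5 of 5, and no CB library (19.6 to 28.8 RPM) reached the lowest PBMC library (66.9 RPM). All CB libraries lay below all PBMC libraries for 30.7% of the miRNAs. The CB values rest on 1067 to 2446 reads a library for hsa-miR-138-5p and 63 to 178 reads for hsa-miR-139-5p, 600 in all. The 3 neuronal miRNAs summed to 48907 to 62086 RPM in CB against 38126 to 70325 RPM in the other regions, none at 0, but they split: hsa-miR-128-3p fell there (14741 ± 2594 to 8255 ± 1188 RPM, limma adjusted p = 7.17e-06), while hsa-miR-124-3p and hsa-miR-9-5p rose. The 4 oligodendrocyte miRNAs summed to 2927 to 3652 RPM in CB against 3790 to 12893 RPM, and the 4 red cell miRNAs to 3541 to 5360 RPM against 662 to 2646 RPM. The red cell sum followed hsa-miR-486-5p (4377 RPM in CB, 1151 RPM elsewhere), while the other 3 were lower in CB, hsa-miR-451a among them (222 against 335 RPM). Their part in the CB levels was not tested.

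The paraventricular nucleus separated the pair in the same direction but by less. hsa-miR-139-5p in PVN of A1 to A4 was 296, 303, 479 and 340 RPM (354 ± 85.2 RPM, SD, n = 4), 2.98-fold below the other regions of the same animals (1058 ± 70.3 RPM). The 4 PVN libraries lay below the 23 others (694 to 1536 RPM), as for 3.04% of the miRNAs, and they lay above the 4 PBMC libraries (80.1 to 277 RPM). hsa-miR-138-5p in PVN was 1176, 2102, 1819 and 832 RPM (1482 ± 581 RPM, SD, n = 4) against 2132 ± 722 RPM in the other regions, with overlapping ranges, though each animal's PVN was below the mean of its own other regions. Within animals the PVN differed by −1.57 ± 0.24 for hsa-miR-139-5p and −0.50 ± 0.35 for hsa-miR-138-5p on log2(RPM + 1) (SD, n = 4), the 5th and the 26th lowest of all miRNAs. The median over all miRNAs was 0.53 in this comparison, and under median-of-ratios scaling, which brings that median to 0, the differences were −2.11 and −1.05. Neuronal miRNAs summed to 30581 to 40140 RPM in PVN and 42227 to 66006 RPM in the other regions, and choroid plexus miRNAs to 4909 to 6734 RPM against 1012 to 5985 RPM. Their part in the PVN levels was not tested.

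Among cortical and limbic regions the ranges of neighbours in mean level overlapped, apart from OC for hsa-miR-138-5p and EC for hsa-miR-139-5p in Group B. Without PVN and CB, the SD between region means of hsa-miR-138-5p and hsa-miR-139-5p on log2(RPM + 1) was 0.31 and 0.25 in Group A. In Group B it was 0.40 and 0.30. The medians over all miRNAs were 0.20 in Group A and 0.25 in Group B. hsa-miR-138-5p in OC of B1 to B5 was 864, 1030, 881, 982 and 1054 RPM (962 ± 85.9 RPM, SD, n = 5). The 17 libraries of dlPFC, MC and PPC from the same animals and from B6 held 1316 to 2150 RPM, and none overlapped with OC, as for 8.01% of the miRNAs. OC was the lowest region other than CB in 5 of the 6 animals, and the exception was B6, of which no OC was measured. Within animals OC minus other neocortex was −0.86 ± 0.23 on log2(RPM + 1) (SD, n = 5), against a median of −0.25 over all miRNAs. hsa-miR-139-5p did not set OC apart: 703, 706, 648, 758 and 528 RPM in B1 to B5 overlapped with 582 to 1097 RPM in the other neocortex, and the difference was −0.22 ± 0.40 (SD, n = 5), lower in 4 of 5 animals. With edgeR the direction turned (0.02). The neuronal miRNAs hsa-miR-128-3p and hsa-miR-124-3p rose in OC over the other neocortex, by 0.41 (SE 0.066) and 0.48 (SE 0.12) on log2(RPM + 1) (limma, adjusted p = 0.000385 and 0.00485). All 4 oligodendrocyte miRNAs fell in OC, as did 2 of 4 vessel miRNAs and 2 of 3 choroid plexus miRNAs, where 45.9% of all miRNAs fell. Under median of ratios 0 of 4 oligodendrocyte and 0 of 4 vessel miRNAs did. Their part in the OC levels was not tested.

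The entorhinal cortex, the relay between neocortex and hippocampus, held the highest level of hsa-miR-139-5p of any region in all 6 animals of Group B and of hsa-miR-138-5p in 4 of the 6. hsa-miR-139-5p ran from 1003 RPM through a median of 1193 RPM to 1436 RPM in EC. In HC, the next region in mean level, it ran from 653 RPM through 914 RPM to 943 RPM, without overlap. EC did overlap with dlPFC (633 to 1097 RPM) and MC (582 to 1037 RPM). EC minus neocortex was 0.69 ± 0.18 for hsa-miR-139-5p and 0.51 ± 0.31 for hsa-miR-138-5p on log2(RPM + 1), higher in 6 of 6 animals for each (SD, n = 6). The median over all miRNAs was 0.15. hsa-miR-138-5p in EC ran from 1696 RPM through 2194 RPM to 2707 RPM and overlapped with dlPFC (1481, 1923 and 2150 RPM), HC (1137, 1805 and 2442 RPM), MC (1316 to 2036 RPM) and PPC (1447 to 1741 RPM). In order of the mean, the levels of hsa-miR-138-5p were EC, dlPFC, HC, MC, PPC, OC, CB and PBMC. From EC to PPC the ranges of neighbours overlapped, whereas those of PPC and OC, OC and CB, and CB and PBMC did not. For hsa-miR-139-5p the order was EC, HC, dlPFC, PPC, MC, OC, PBMC and CB, and the neighbours from HC to OC overlapped. Apart from CB below PBMC, no share over all miRNAs was computed for the neighbours without overlap.

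In Group A the highest mean of both miRNAs was in the amygdala, of which A4 had no library, while the other means include A4. Over A1 to A3 alone the dACC means were 2786 RPM for hsa-miR-138-5p and 1194 RPM for hsa-miR-139-5p. AMG was the highest region for hsa-miR-138-5p in A1 and A2 and for hsa-miR-139-5p in A2 only. hsa-miR-138-5p was 2921, 4153 and 2071 RPM in AMG of A1, A2 and A3 (3048 ± 1047 RPM, SD, n = 3) and hsa-miR-139-5p was 1177, 1536 and 1144 RPM (1285 ± 218 RPM). In A1 and A2 AMG was above the mean of the animal's own cortex for both miRNAs, and in the doubted A3 the difference was −0.21 for hsa-miR-138-5p and 0.0020 for hsa-miR-139-5p on log2(RPM + 1). Without the doubted AMG of A3 the means were 3537 and 1356 RPM (n = 2), and without its mOFC the mOFC means went from 2167 to 1897 RPM and from 1112 to 1076 RPM. dACC was next for both. Its levels were above those of PCC in each of the 4 animals, by 0.54 ± 0.36 for hsa-miR-138-5p and 0.61 ± 0.10 for hsa-miR-139-5p on log2(RPM + 1) (SD, n = 4). The median of dACC minus PCC over all miRNAs was 0.15. hsa-miR-138-5p in dACC of A1 to A4 was 2444, 2849, 3065 and 1478 RPM and in PCC 2328, 1785, 2174 and 785 RPM, and hsa-miR-139-5p in dACC was 1159, 977, 1444 and 1219 RPM and in PCC 786, 694, 875 and 772 RPM. All neighbours in the order of hsa-miR-138-5p, AMG, dACC, mOFC, dmPFC, lOFC, PCC and PVN, overlapped. For hsa-miR-139-5p, with AMG, dACC, mOFC, lOFC, dmPFC, PCC and PVN in order, PCC and PVN were the only brain neighbours that did not. No share over all miRNAs was computed for that pair.

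**Figure D2:**
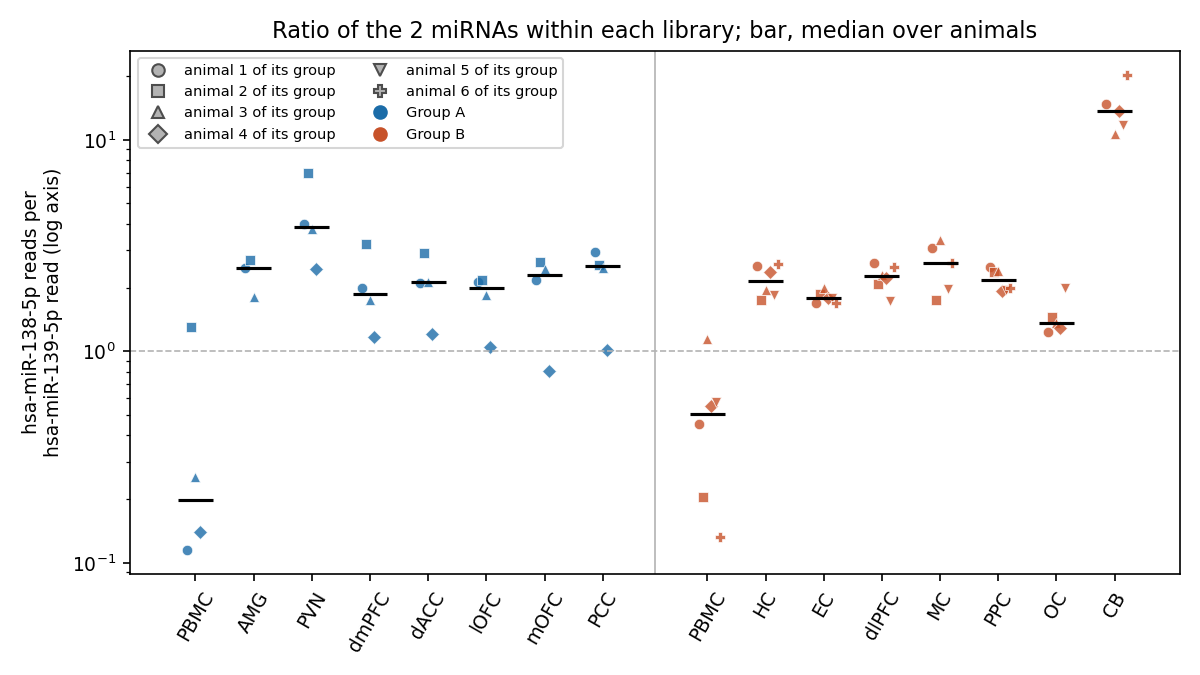
Reads of hsa-miR-138-5p per read of hsa-miR-139-5p in each library, on a log axis, by tissue, with Group A left of the line and Group B right of it. Symbols are animals, bars are medians and the dashed line marks equal reads: CB was at 10.6 to 20.4, all other brain libraries at 0.805 to 6.94 and PBMC at 0.115 to 1.31.

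The ratio of the 2 within a library does not depend on how the library was scaled. Reads of different miRNAs are not on a common molar scale, so it was compared only between tissues. hsa-miR-138-5p gave 14.3 ± 3.78 reads per read of hsa-miR-139-5p in CB (SD, n = 5), 4.29 ± 1.89 in PVN (SD, n = 4) and 0.454 ± 0.572 and 0.510 ± 0.358 in PBMC of Groups A and B (SD, n = 4 and 6). The ratio in the other regions had medians of 1.36 in OC to 2.62 in MC. The lowest CB library (10.6) was above the highest library of any other tissue, the PVN of A2 (6.94). CB and PVN came from different groups, and the pair was chosen with its CB levels known. How many other pairs of miRNAs set CB apart in this way was not computed. In Group B, OC had the lowest brain ratio (1.47 ± 0.306, SD, n = 5) and EC the narrowest (1.69 to 1.99).

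The 3p strands of the hairpins were scarce and are the one readout of these loci that the choice of the 2 miRNAs did not use, although they come from the same transcripts and the same libraries and are not independent of them. The 5p strand made up 95.0 to 98.8% of miR-138 reads in a brain library and 94.7 to 99.1% of miR-139 reads. In brain, hsa-miR-138-1-3p had 2.12 to 5.56 times the reads of hsa-miR-138-2-3p by region, and the reads of hsa-miR-138-5p cannot be assigned to either hairpin. Over the brain libraries of Group A the levels were 19.3 to 93.1 RPM for hsa-miR-138-1-3p, 5.56 to 36.7 RPM for hsa-miR-138-2-3p and 8.62 to 55.1 RPM for hsa-miR-139-3p.

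All 3 of these strands were lower in PBMC than in brain in Group A and in Group B, and by the same rule (limma, Benjamini-Hochberg adjusted p under 0.05) 60.2% of the miRNAs were lower in each. hsa-miR-138-1-3p averaged 2.04 ± 2.48 RPM in PBMC and 53.5 ± 15.6 RPM in brain of Group A (log2 difference −4.37, SE 0.35, n = 4, limma adjusted p = 2.3e-05) and at 1.40 ± 1.24 and 23.1 ± 1.72 RPM in Group B (−3.34, SE 0.27, n = 6, adjusted p = 4.89e-06). Its PBMC values rest on 17 and 8 reads in all. hsa-miR-139-3p stood at 2.53 ± 0.735 and 29.0 ± 6.11 RPM in Group A (−2.98, SE 0.22, adjusted p = 1.35e-05) and at 3.05 ± 2.33 and 23.1 ± 3.66 RPM in Group B (−2.35, SE 0.27, adjusted p = 4.51e-05). hsa-miR-138-2-3p had 0 reads in all 10 PBMC libraries (adjusted p = 2.74e-06 and 2.3e-08), and its mean over the brain libraries was at least 62.2-fold higher in Group A and at least 14.8-fold higher in Group B than the level that 3 reads over the PBMC libraries of the group would give. Quantile normalization, which forces blood and brain to the same distribution, ended the calls of hsa-miR-139-3p (adjusted p = 0.583 in Group A and 0.548 in Group B) and of hsa-miR-138-2-3p in Group B (0.123).

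**Figure D3:**
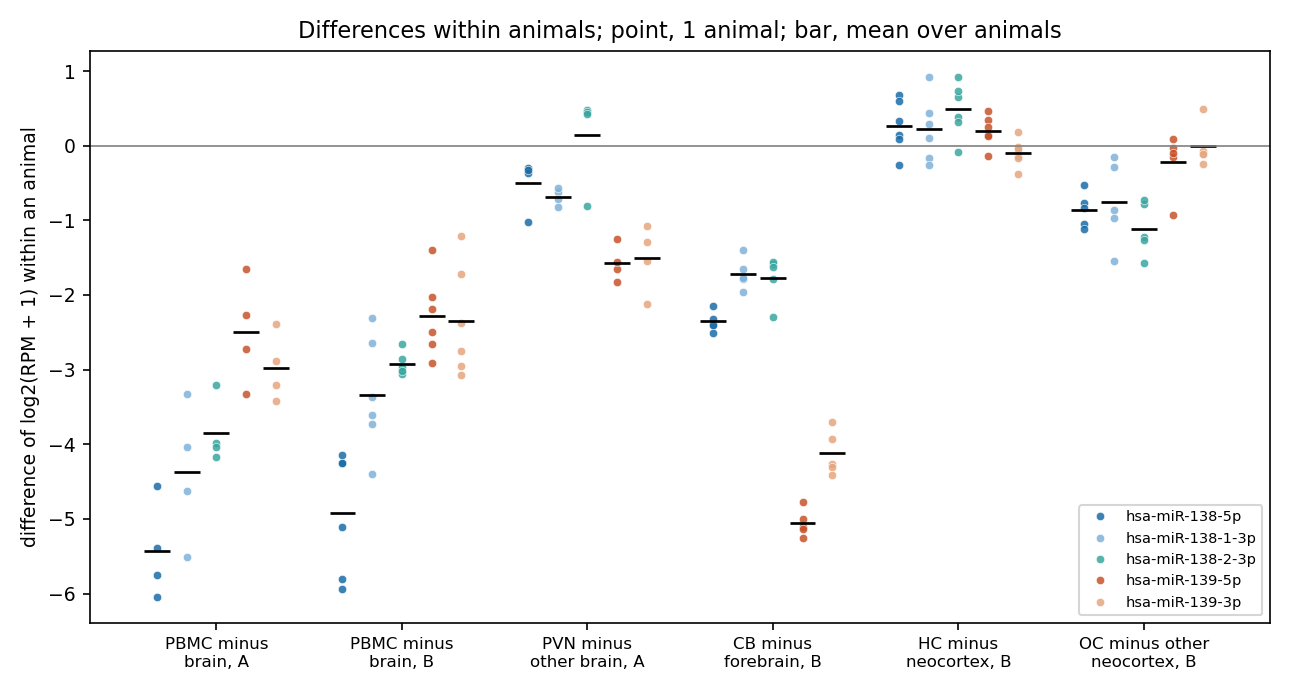
Differences within animals on log2(RPM + 1) for hsa-miR-138-5p, hsa-miR-139-5p and the 3p strands of their hairpins in 6 comparisons. Points are animals and bars are means: in CB the miR-139 strands lay between −5.26 and −3.70 and the miR-138 strands between −2.51 and −1.40.

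In CB, hsa-miR-139-3p fell much further than either miR-138 3p strand. It stood at 0.506 ± 0.223 RPM (SD, n = 5; 13 reads in all) against 26.5 ± 4.22 RPM in the other regions (−4.12, SE 0.15, limma adjusted p = 3.83e-09). hsa-miR-138-1-3p stood at 7.02 ± 0.905 against 26.1 ± 2.08 RPM (−1.71, SE 0.12, adjusted p = 5e-07) and hsa-miR-138-2-3p at 1.70 ± 0.525 against 8.64 ± 1.09 RPM (−1.77, SE 0.15, adjusted p = 2e-06). Each was lower in 5 of 5 animals, and 60.8% of the miRNAs were lower in CB. The difference between the loci was not itself tested. In PVN, where 9.94% of the miRNAs were lower, hsa-miR-139-3p fell from 32.4 ± 7.72 to 10.4 ± 1.80 RPM (−1.51, SE 0.18, n = 4, adjusted p = 0.000104) and hsa-miR-138-1-3p from 56.8 ± 16.2 to 34.5 ± 11.4 RPM (−0.68, SE 0.11, adjusted p = 0.000576), each lower in 4 of 4 animals. Without the animal as a replicate block the call of hsa-miR-138-1-3p in PVN was lost (adjusted p = 0.0839). hsa-miR-138-2-3p did not pass the test there (0.14, SE 0.23, adjusted p = 0.609) and its direction turned under median of ratios, quantile normalization, edgeR and DESeq2. Leaving out A1 brought it past the test (0.45, adjusted p = 0.0333).

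In OC, where 45.9% of the miRNAs were lower, both miR-138 3p strands fell against the other neocortex and hsa-miR-139-3p did not pass the test. hsa-miR-138-1-3p stood at 15.8 ± 7.77 against 25.6 ± 3.59 RPM (−0.76, SE 0.19, n = 5, limma adjusted p = 0.00607) and hsa-miR-138-2-3p at 3.64 ± 0.735 against 9.38 ± 1.66 RPM (−1.11, SE 0.20, adjusted p = 0.00067), lower in 5 of 5 animals each. hsa-miR-139-3p stood at 24.1 ± 4.25 and 24.6 ± 4.20 RPM (−0.01, SE 0.13, adjusted p = 0.955). With edgeR the call of hsa-miR-138-1-3p was lost (−0.50, adjusted p = 0.0791). In HC against neocortex, where 15.5% of the miRNAs were higher, hsa-miR-138-2-3p rose from 7.89 ± 1.22 to 10.8 ± 2.78 RPM (0.49, SE 0.16, n = 6, adjusted p = 0.0403), a call that 10 alternatives ended, among them leaving out any of B1, B3, B4, B5 and B6 (adjusted p = 0.0739 to 0.113). hsa-miR-138-1-3p and hsa-miR-139-3p did not pass (0.22 and −0.10, adjusted p = 0.320 and 0.600). For the 5p strands HC minus neocortex was 0.26 ± 0.35 and 0.20 ± 0.21 for hsa-miR-138-5p and hsa-miR-139-5p (SD, n = 6), higher in 5 of 6 animals for each.

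The animals of Group A did not carry equal levels of hsa-miR-138-5p. A4 had the lowest level of the 4 animals in PBMC and in each of the 6 brain regions it shared with the others, 7 of 7 tissues, which held for 6.63% of all miRNAs. The share was 0% for A1 as the lowest and 0.276% each for A2 and A3, and A4 was the highest in 7 of 7 for 2.49%. In PVN, dmPFC, dACC, lOFC, mOFC and PCC of A4 it stood at 832, 980, 1478, 1055, 1027 and 785 RPM, and the lowest of the other 3 animals in those regions at 1176, 1984, 2444, 2027, 2229 and 1785 RPM. The mean over the other 3 animals was 1.88-fold (dACC) to 2.67-fold (PCC) higher in brain and 3.58-fold higher in PBMC. A4 minus the others averaged −1.14 on log2(RPM + 1) over the 6 regions, the 6th lowest of all miRNAs, against a median of −0.20 over all miRNAs. hsa-miR-139-5p did not share this order. It was 340, 841, 1219, 1012, 1275 and 772 RPM in the same regions of A4, averaged −0.01 against the others, and A4 was lowest in none of the 7 tissues.

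**Figure D4:**
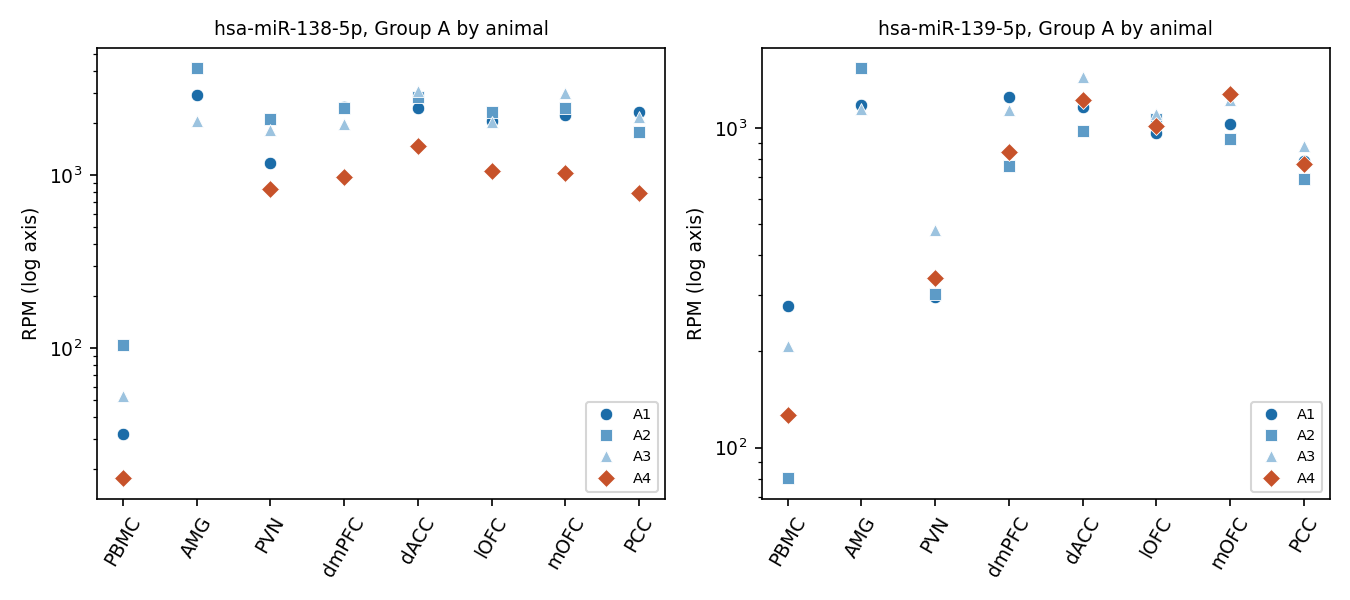
RPM of hsa-miR-138-5p (left) and hsa-miR-139-5p (right) in each tissue of the 4 animals of Group A, on a log axis, 1 symbol per library, with no AMG for A4. A4 was the lowest symbol for hsa-miR-138-5p in 7 of 7 tissues and for hsa-miR-139-5p in 0 of 7.

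The strands of the hairpins split in the same way in A4. hsa-miR-138-1-3p was lowest in A4 in 6 of 6 brain regions and hsa-miR-138-2-3p in 5 of 6, whereas hsa-miR-139-3p was lowest in none and highest in 4 of 6. Under median-of-ratios scaling hsa-miR-138-5p stayed lowest in A4 in 7 of 7 tissues and hsa-miR-138-1-3p in 5 of 6 regions. No share over all miRNAs was computed for the counts of brain regions or for those under median of ratios. Oligodendrocyte miRNAs were also lowest in A4 in 5 of the 6 regions (900 to 5074 RPM, other animals 2131 to 7317 RPM), while neuronal miRNAs were lowest in A4 in 0 of 6 (38692 to 66006 RPM, others 30581 to 61472 RPM). In PBMC, A4 had the highest sum of red cell miRNAs (41386 RPM, others 10576 to 26795 RPM) and of neuronal miRNAs (1025 RPM, others 528 to 632 RPM) and the lowest sum of leukocyte miRNAs (65760 RPM, others 94881 to 144845 RPM). Of the red cell miRNAs, hsa-miR-486-5p averaged 22932 RPM in PBMC of Group A and hsa-miR-451a 476 RPM. The part of these lists in the level of hsa-miR-138-5p was not tested. Between animals, the SD of hsa-miR-138-5p within a region, median over the 6 regions of Group A other than PVN, was 0.57 on log2(RPM + 1), above that of 337 miRNAs, and 0.24 in Group B, above that of 114. For hsa-miR-139-5p it was 0.22 and 0.24.

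Whether the level in blood followed the level in brain was the question of the study, and it was asked of each member over animals. For hsa-miR-138-5p the PBMC levels of Group B fell into 2 separate sets of 3 animals, 21.5 to 35.3 RPM (B6, B2, B1) and 68.8 to 76.1 RPM (B4, B5, B3). A correlation over the 6 animals cannot be told apart from a gap between these sets. Pearson's r was 0.779 (exact permutation p = 0.0861, two-sided, n = 6, adjusted p = 0.681 over 340 miRNAs). Pearson's r was 0.85 over the regions every animal had (exact permutation p = 0.0347, adjusted p = 0.472) and −0.03 on the log2 scale (adjusted p = 0.988). Apart from the 0.85, these values used every brain library of an animal, and B2 had no CB, B4 no MC and B6 no OC. The −0.03 thus compares means that include CB, the lowest brain region, with a mean of B2 that does not. No r on the log2 scale was computed over the shared regions. The brain means of the first set were 1563, 1423 and 1461 RPM and of the second 1587, 1613 and 1624 RPM. Over HC, EC, dlPFC and PPC alone, the regions every animal had, they were 1827, 1548 and 1816 RPM against 2048, 1967 and 2057 RPM. In Group A, too few animals for a correlation, PBMC and brain stood at 31.8 and 2235 RPM in A1, 104.8 and 2586 RPM in A2, 53.1 and 2302 RPM in A3 and 17.7 and 1026 RPM in A4. The order of the 4 animals was the same in both tissues. Over the 6 regions A4 shared, the brain means were 2121, 2325, 2341 and 1026 RPM, and A2 and A3 changed places.

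For hsa-miR-139-5p no relation was seen in Group B. PBMC and brain stood at 77.7 and 642 RPM in B1, 117 and 757 RPM in B2, 66.9 and 733 RPM in B3, 124 and 798 RPM in B4, 125 and 844 RPM in B5 and 162 and 672 RPM in B6. Pearson's r was 0.183 (exact permutation p = 0.704, two-sided, n = 6, adjusted p = 0.977 over 340 miRNAs) and Spearman's rho 0.314 (exact permutation p = 0.564, adjusted p = 0.969). Without B1 and B3, the animals farthest from the median PBMC level, r was −0.79. Left out alone, B1 turned r to −0.19 and B6 raised it to 0.78. These brain means do not cover the same regions, since B2 had no CB, B4 no MC and B6 no OC. Over HC, EC, dlPFC and PPC alone they were 796, 770, 968, 1001, 1079 and 844 RPM in B1 to B6. Pearson's r over these regions was 0.02 (exact permutation p = 0.949, adjusted p = 0.992). Of the 340 miRNAs 25, or 7.35%, had an exact permutation p under 0.05 by Pearson's r and 16, or 4.71%, by Spearman's rho, and 0 passed adjustment. In Group A, PBMC and brain stood at 277 and 951 RPM in A1, 80.1 and 894 RPM in A2, 208 and 1058 RPM in A3 and 126 and 910 RPM in A4. The sum of red cell miRNAs in PBMC was highest in A4 (41386 RPM) and B6 (25303 RPM). These animals had the lowest hsa-miR-138-5p in PBMC of their group. The rest of Group B did not follow this order. B2 had nearly as little hsa-miR-138-5p as B6 (23.95 and 21.52 RPM) at a red cell sum of 12242 RPM. B3, with the most (76.11 RPM), had the next highest sum after B6 (14415 RPM). hsa-miR-486-5p averaged 22932 and 13618 RPM in PBMC of Groups A and B, and hsa-miR-451a 476 and 127 RPM. In Group B the other 3 red cell miRNAs were lower in PBMC than in brain. B6 also had the lowest leukocyte sum (108887 RPM) and the highest neuronal sum (978 RPM) of its group. The part of these miRNAs in the levels was not tested.

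**Figure D5:**
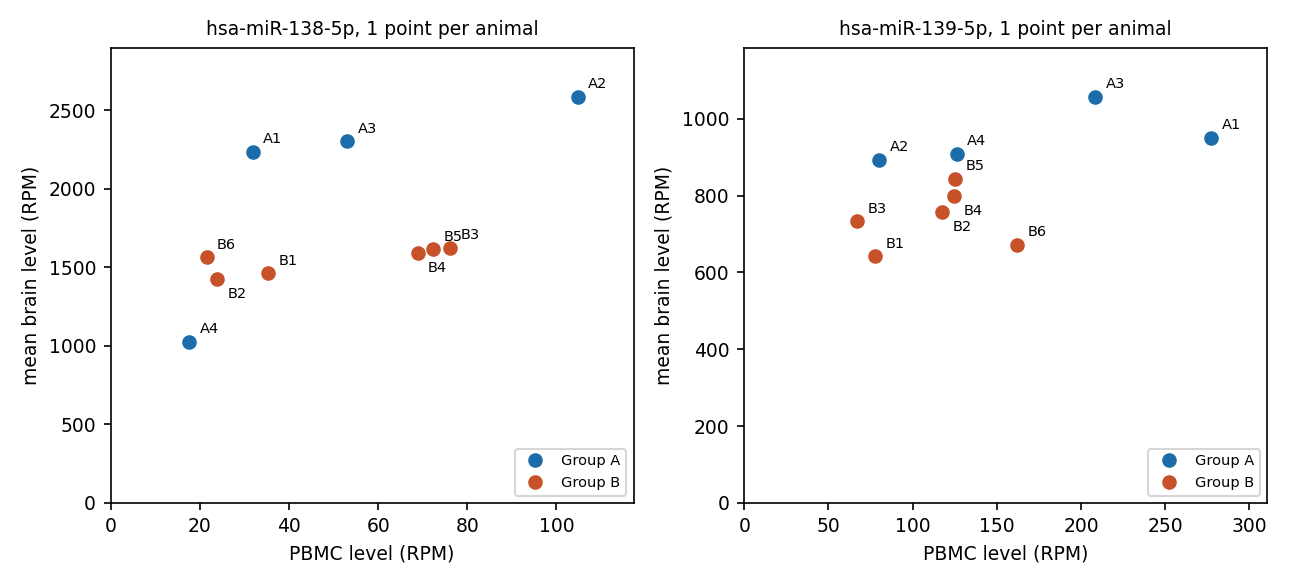
Mean brain level against PBMC level in RPM, 1 point per animal, for hsa-miR-138-5p (left) and hsa-miR-139-5p (right), Groups A and B in different colours. The PBMC levels of hsa-miR-138-5p in Group B form a set at 21.5 to 35.3 RPM and a set at 68.8 to 76.1 RPM.

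The miRNAs most like the pair across the 14 brain regions were a small set led by hsa-miR-221-3p and hsa-miR-222-3p, the strands of a clustered pair of hairpins that share a seed. Likeness was Pearson's r of mean log2(RPM + 1) over the 14 regions, which share animals and libraries within a group, so it is a description. For hsa-miR-138-5p the 5 highest were hsa-miR-221-3p (r = 0.97), hsa-miR-222-3p (0.96), hsa-miR-22-3p (0.96), hsa-miR-137 (0.95) and hsa-miR-22-5p (0.94), with hsa-miR-139-5p in the 6th place (0.94). For hsa-miR-139-5p they were its own 3p strand (0.99), hsa-miR-221-3p (0.98), hsa-miR-222-3p (0.98), hsa-miR-137 (0.95) and hsa-miR-138-5p (0.94). Leaving out the doubted AMG and mOFC of A3 gave the same 5 names for each. The 14 regions span both groups. Over the 7 regions of Group A alone, r to hsa-miR-138-5p was 0.84, 0.89, 0.55, 0.67 and 0.78 in the order named, and r to hsa-miR-139-5p was 0.96, 0.99, 0.93, 0.28 and 0.81. Over the 7 regions of Group B alone, r was 0.98 to 1.00 and 0.95 to 0.99.

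Much of this likeness lay in the CB. hsa-miR-221-3p averaged 2126 RPM in the other regions of Group B and 22.4 ± 4.67 RPM in CB (SD, n = 5), hsa-miR-222-3p 1890 and 8.57 ± 2.25 RPM, and hsa-miR-137, a miRNA of neuronal differentiation, 256 and 0.604 ± 0.449 RPM. Over the 13 regions without CB, r to hsa-miR-138-5p was 0.91 and 0.93 for hsa-miR-221-3p and hsa-miR-222-3p and 0.83 for hsa-miR-137, and r between hsa-miR-138-5p and hsa-miR-139-5p was 0.72. Over the same 13 regions r to hsa-miR-139-5p was 0.84, 0.77 and 0.45 in the same order, and 0.93 for hsa-miR-139-3p. With PBMC of both groups included, r between the pair was 0.77 over 16 tissues.

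A list of 17 other miRNAs with known roles in dendrites and synapses, the 3 neuronal miRNAs among them, was set beside the pair. It was chosen with earlier results of these data known. In PBMC, 16 of the 17 fell and 1 rose against brain in each group, where 60.2% of all miRNAs fell in each and 28.2% (Group A) and 31.8% (Group B) rose. The list medians were −4.77 and −3.93 on log2(RPM + 1), against −1.53 and −1.32 over all miRNAs. The 1 that rose in Group A was hsa-miR-92a-3p, a member of the miR-17-92 cluster of dividing and blood-forming cells (30169 ± 7858 RPM in PBMC, 2543 ± 313 RPM in brain, SD, n = 4, limma adjusted p = 1.53e-06).

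Within the brain the list did not move as a body. In CB 5 of the 17 rose and 11 fell, beside 24.9% and 60.8% of all miRNAs, with a list median of −0.59 (all −0.49). hsa-miR-26a-5p rose from 75457 ± 2787 to 113179 ± 10195 RPM (SD, n = 5, limma adjusted p = 2.77e-06) and hsa-miR-181a-5p fell from 80115 ± 3548 to 35399 ± 5285 RPM (adjusted p = 1.71e-07). Of the neuronal miRNAs in the list, hsa-miR-124-3p rose there from 6168 ± 928 to 11463 ± 1637 RPM (adjusted p = 2.81e-07) and hsa-miR-128-3p fell from 14741 ± 2594 to 8255 ± 1188 RPM (adjusted p = 7.17e-06). In PVN 10 rose and 5 fell, beside 61.6% and 9.94% of all miRNAs, with a list median of 0.51 (all 0.53). hsa-miR-26a-5p fell there from 97582 ± 11232 to 66682 ± 9624 RPM (SD, n = 4, adjusted p = 0.000118), and hsa-miR-124-3p from 6838 ± 1230 to 2506 ± 737 RPM (adjusted p = 5.74e-06). In HC 4 rose and 4 fell, beside 15.5% and 11% of all miRNAs, with a list median of 0.08 (all 0.03). In OC 4 rose and 5 fell, beside 10.2% and 45.9%, with a list median of 0.01 (all −0.25). Under median of ratios 5 were higher and 7 lower in PVN, 7 and 7 in CB, and 8 and 3 in OC.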

How the data were processed

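Small RNA libraries (TruSeq kit, Genome Analyzer IIx) were made from PBMC and 14 brain regions of 10 baboons. The deposited RPM values are reads per 1000000 mapped miRNA reads, which the authors obtained with bowtie inside mirDeep2 (versions not given in the sources used here) by mapping to human mature miRNAs of miRBase release 21 with 0 mismatches. The authors combined runs of a library, left out libraries under 500000 mapped reads, and required 10 reads or more of a miRNA in 80% of the brain libraries, a filter that the recovered reads met. A deposited count column gives the total read count of each miRNA over the libraries. Of the columns, 3 hold no values and 0 could not be tied to a sample.

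Reads were recovered from the steps between RPM values: 100% of values up to 200 RPM were whole within 0.1 reads, and their sums came to 0.999957 to 1 of the deposited count totals. Totals per library set the floor of 3 reads. Reads carry no molecular identifiers, so floors cover counting error only. Each comparison took, per animal, the mean of log2(RPM + 1) of the region and of the regions it was set against, and was fitted over all miRNAs with limma 3.58.1 (trend, animal as a block, R 4.3.3), with Benjamini-Hochberg adjustment at 0.05. Pairs are libraries of 1 animal, as named in the labels, and the correlation of paired deviations was 0.353 to 0.872 in 5 of the 6 comparisons and −0.147 to 0.328 for PBMC in Group B. Alternatives were no block, a pseudocount of 0.1 or of 10 RPM, a filter at a mean of 10 RPM, scaling by median of ratios or by quantiles, edgeR 4.0.16 and DESeq2 1.42.0 on recovered reads, and each animal left out. Blood and brain were correlated over the 6 animals of Group B by exact permutation. Fits were tested on simulated data. Tables and figures were made with Python 3.11.15, pandas 2.3.3, scipy 1.17.1 and matplotlib 3.10.9.

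The 2 miRNAs, and the lists of neuronal, oligodendrocyte, leukocyte, red cell, choroid plexus, vessel and dendrite miRNAs, were chosen with earlier results of these data known. The text names the 2 miRNAs, the other strands of their hairpins, for each the 5 miRNAs most like it over the 14 regions, and the most abundant members of each list, up to 3. Replicates are separate animals.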

Additional observations from a re-analysis of the deposited data

Results flagged for a closer look

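Of 73 sets of 4 to 6 libraries of 1 tissue, for the 2 miRNAs and the 3 other strands of their hairpins, 3 held a library far from the rest by Dixon's 95% criterion, where chance gives about 1 in 20. In dACC hsa-miR-139-3p was 55.1 RPM in A4 and 30.5 to 31.7 RPM in the other animals. In mOFC it was 50.42 RPM in A4 and 19.1 to 23.1 RPM in the others. In dlPFC of Group B hsa-miR-138-1-3p was 37.07 RPM in B5 and 23.2 to 27.6 RPM in the others.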

How the results depend on the processing

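No alternative turned the direction of hsa-miR-138-5p in any of the 6 comparisons, and hsa-miR-139-5p turned only in OC (0.02 with edgeR). Without the replicate block, which is the animal, the calls went from 96 to 53 in HC and from 203 to 134 in OC. Leaving out 1 animal gave 59 (without B1 or B3) to 99 calls in HC. For hsa-miR-138-2-3p in PVN the log2 difference was −0.36 by median of ratios, −0.39 by quantile normalization, −0.41 with edgeR and −0.45 with DESeq2. For hsa-miR-139-3p in OC it was 0.21, 0.30, 0.24 and 0.21 by the same 4, and −0.13 to 0.050 with 1 animal left out. Quantile normalization gave 0.17 for hsa-miR-138-2-3p and 0.12 for hsa-miR-139-3p between PBMC and brain of Group B. The blood-brain r of hsa-miR-139-5p was −0.12 by median of ratios and −0.19 to 0.78 with 1 animal left out. The miRNAs with an exact permutation p under 0.05 went from 25 to 16 by Spearman's rho, which was added after the data were seen, and to 34 with only the regions every animal had, to 12 (without B4), 15 (without B5) and up to 26 with other animals left out. Median of ratios moved the split of higher and lower calls from 223 and 36 to 122 and 117 in PVN, from 90 and 220 to 142 and 151 in CB, from 37 and 166 to 79 and 78 in OC, and from 102 and 218 to 128 and 190 in PBMC of Group A. Quantile normalization gave 154 and 157 in PBMC of Group A and, from 115 and 218, 160 and 151 in Group B. The median over all miRNAs went from 0.53 to 0.00 in PVN, from −0.49 to −0.01 in CB and from −1.53 to −0.81 in PBMC of Group A under median of ratios. The cause was not tested in any of these. PBMC reads limit the 3p strands, which had 0 to 13 reads a library.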

Other observations

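The marker lists gave the following counts of called miRNAs (limma, adjusted p under 0.05). In PBMC against brain, where 28.2% (Group A) and 31.8% (Group B) of all miRNAs were higher and 60.2% lower in each, all 7 leukocyte miRNAs were higher and all 3 neuronal, 4 oligodendrocyte and 3 choroid plexus miRNAs lower in each group. Of the 4 red cell miRNAs 1 was higher in Group A, and 1 was higher and 3 lower in Group B. The 4 vessel miRNAs split into 2 higher and 2 lower in each group.

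In CB 24.9% of all miRNAs were higher and 60.8% lower. All 4 oligodendrocyte and all 4 vessel miRNAs were lower there, also under median of ratios. Each other list split: 1 leukocyte miRNA was higher and 6 lower, 1 red cell miRNA (hsa-miR-486-5p) was higher and 3 lower, 1 choroid plexus miRNA (hsa-miR-204-5p) was higher and 2 lower, and 2 neuronal miRNAs were higher and 1 (hsa-miR-128-3p) lower. Under median of ratios 1 red cell miRNA and 1 choroid plexus miRNA were called lower.

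In PVN 61.6% of all miRNAs were higher and 9.94% lower. There 5 of 7 leukocyte and 3 of 4 red cell miRNAs were higher with 0 lower, 2 choroid plexus miRNAs were higher and 1 (hsa-miR-211-5p) lower, and 2 of 3 neuronal and 1 of 4 vessel miRNAs were lower. None of the 4 oligodendrocyte miRNAs was called. Under median of ratios 1 leukocyte miRNA was higher and 2 lower, 1 red cell miRNA was higher, and 3 of 3 neuronal, 4 of 4 vessel and 4 of 4 oligodendrocyte miRNAs were lower.

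In OC against the other neocortex 10.2% of all miRNAs were higher and 45.9% lower. There 4 of 4 oligodendrocyte, 2 of 4 vessel and 2 of 7 leukocyte miRNAs were lower with 0 higher, 2 of 3 neuronal miRNAs were higher with 0 lower, 1 red cell miRNA was higher and 1 lower, and 1 choroid plexus miRNA was higher and 2 lower. Under median of ratios 0 oligodendrocyte and 0 vessel miRNAs were called, 1 leukocyte miRNA was higher and 1 lower, and 3 of 3 neuronal miRNAs were higher.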
